A study of Mus musculus with 8 samples.

Results

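The genes described here are 10 genes of the NRF2 antioxidant program in tumour-associated macrophages (TAMs). They were chosen by symbol: Nfe2l2, which encodes NRF2 itself, and 9 of the targets by which its activity is commonly read, Nqo1, Gclc, Gclm, Txnrd1, Srxn1, Slc7a11, Prdx1, Gsr and Sqstm1. They are 10 of the 21051 genes in the deposited tables, and all 10 passed the filter on low counts. The study sorted CD45+F4/80+ cells by flow cytometry from subcutaneous B16 melanomas on day 14 after injection and sequenced their RNA, with 4 libraries from WT mice (TAM-WT) and 4 from Colec11-/- mice (TAM-KO). All mice were of the C57BL/6 strain, males of 8 to 10 weeks by the study's general methods, the Colec11-/- mice having been back-crossed to C57BL/6 and the WT mice being littermates. Colec11 encodes collectin-11, a soluble lectin that binds sugars on cell surfaces. Its deletion is in every cell of the host and not in the injected tumor cells, so the comparison is of macrophages from hosts with and without the gene, and not of a deletion made in macrophages. The question for this gene set is whether the macrophages of the 2 genotypes differ in NRF2 target RNA.

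NRF2 is a transcription factor that is held at a low level by KEAP1, an adaptor that presents it to the CUL3-RBX1 ubiquitin ligase for destruction. Electrophiles and oxidants modify cysteines of KEAP1, NRF2 then accumulates, pairs with a small MAF protein and binds antioxidant response elements in the promoters and enhancers of its targets, where BACH1 competes with it. The targets make and recycle glutathione, reduce thioredoxin and peroxiredoxins, detoxify quinones and store iron. Since NRF2 is controlled mainly by protein stability, the level of Nfe2l2 RNA says little about its activity, which is why targets are measured. Macrophages generate oxidants through the NADPH oxidase and take up heme and iron from dying cells, and heme lifts the repression by BACH1.

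The 7 complete tables held from 16225362 to 17280267 reads on genes. The table of TAM-KO replicate 1 is incomplete, with 5311 consecutive genes missing, among them 6 of the 10: Nfe2l2, Nqo1, Gclc, Gclm, Gsr and Sqstm1. The table of the whole series lists none of the 10 genes, so these 6 rest on 4 TAM-WT and 3 TAM-KO libraries, while Txnrd1, Srxn1, Slc7a11 and Prdx1 rest on all 8. Levels are given as FPKM, read fragments scaled to transcript length and to the mapped fragments of the library, which can be compared between genes. Values of single libraries stand in the order of replicates 1 to 4, or 2 to 4 of TAM-KO where replicate 1 is missing. Differences are log2 fold changes of TAM-KO over TAM-WT fitted by edgeR to the read counts after TMM scaling, with their standard error (SE) and a p-value adjusted over all 12412 genes tested. The targeted gene does not check the labels, since Colec11 had 1, 4, 0 and 1 reads in TAM-WT and 1 read in each TAM-KO library.

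Macrophage RNA was present in the 7 complete libraries, and of the markers the values of TAM-KO replicate 1 hold only Fcgr1, at 109.6 FPKM from the table of the whole series. Of 8 macrophage markers (Adgre1, Csf1r, Cd68, Mertk, Fcgr1, C1qa, C1qb and C1qc), C1qa, a subunit of the complement component C1q, had the highest mean FPKM over both groups. Its FPKM was 2108, 1613, 1776 and 1682 in TAM-WT and 2161, 2057 and 2082 in TAM-KO. In TAM-WT alone Cd68 was higher, at a mean of 2075 against 1795 for C1qa, and in TAM-KO it was lower, at 1518 against 2100. The summed FPKM of the 8 markers was 8732, 6994, 7979 and 7997 in TAM-WT and 8056, 7858 and 8499 in TAM-KO, and 0 of the 8 passed an adjusted p of 0.05. The groups overlapped in that sum, which C1qa, C1qb, C1qc and Cd68 dominate. Of the 8 log2 fold changes, 4 were below 0 and 4 above, and 3 had an unadjusted p under 0.05: Cd68 at -0.55 ± 0.17 (SE), adjusted p = 0.0732, Mertk at -0.35 ± 0.095, adjusted p = 0.0557 and Fcgr1 at 0.49 ± 0.17, adjusted p = 0.0963. FPKM of Mertk and of Fcgr1 did not overlap between groups. RNA of genes that mark other cells was present too, and part of it differed between the groups. The gate selects for CD45 and F4/80 and the study checked its purity by flow cytometry. Which cells this RNA comes from was not tested. Summed FPKM of 7 melanoma genes was 2640, 4382, 2010 and 1958 in TAM-WT and 4492, 5057, 4742 and 3817 in TAM-KO, led by Pmel, a pigment granule protein, and none was at 0. TAM-WT replicate 2 lay among the TAM-KO libraries and the other 3 TAM-WT libraries below all 4. Of the 7 melanoma genes, 1 was called, Sox10, higher in TAM-KO at 0.76 ± 0.17 (SE), adjusted p = 0.0295, and the median of the 7 was 0.59. All 7 were above 0, and 6 had an unadjusted p under 0.05, where 30.66% of all genes did. Sox10 was called in 3 of the 8 fits with a library left out. In 6 recruited monocyte genes, 3 were called, all higher in TAM-KO, with a median log2 fold change of 1.11, while 2 of the 6, Ccr2 and Vcan, were below 0 at -0.045 and -0.38 with overlapping groups. By mean FPKM Plac8 led the 6 in TAM-KO at 126.5, while in TAM-WT Ccr2 was above it, at 46.95 against 44.44. The part that either list has in the values below was not tested. In bulk RNA, fewer cells of a type and less RNA per cell cannot be told apart.

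None of the 10 genes differed between TAM-KO and TAM-WT at an adjusted p of at most 0.05. By edgeR 0 of 10 were called, where 9.81% of all genes tested were called, 4.58% higher and 5.24% lower in TAM-KO, and 0 of 10 were DEGs (a fold change of at least 2 as well), where 2.53% of all genes were. At an unadjusted p under 0.05, 4 of the 10 passed, and 30.66% of all genes did. DESeq2 called 1 of the 10, Prdx1, and limma voom with sample quality weights called 2, Prdx1 and Srxn1, while they called 18.2% and 29.2% of all genes. FPKM of the groups overlapped in all 10 genes, and 18.9% of all genes had groups that did not overlap. In TMM-scaled counts 1 of the 10, Prdx1, had groups that did not overlap, and 19.2% of all genes had such groups.

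All 10 log2 fold changes were below 0 after TMM scaling, from -0.45 for Srxn1 to -0.008 for Nfe2l2, although Nfe2l2, Gclm and Gsr lay above 0 by FPKM and by library totals. The median of the 10 was -0.26, and the median of all genes tested was 0.0016, with 50.31% of them above 0. The scaling turned the direction of Nfe2l2, Gclm and Gsr and of none of the other 7, and FPKM places genes in general higher in TAM-KO: over 11118 genes with a mean FPKM of at least 1, the median log2 ratio of TAM-KO to TAM-WT means was 0.097, and in limma on log2(FPKM + 0.1) the median over all genes was 0.11. By mean FPKM, 7 of the 10 genes were lower in TAM-KO, and relative to that median of 0.097, 9 of 10 were. These are counts over genes picked because they share a regulator, so the 10 are not independent of each other.

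**Figure D1:**
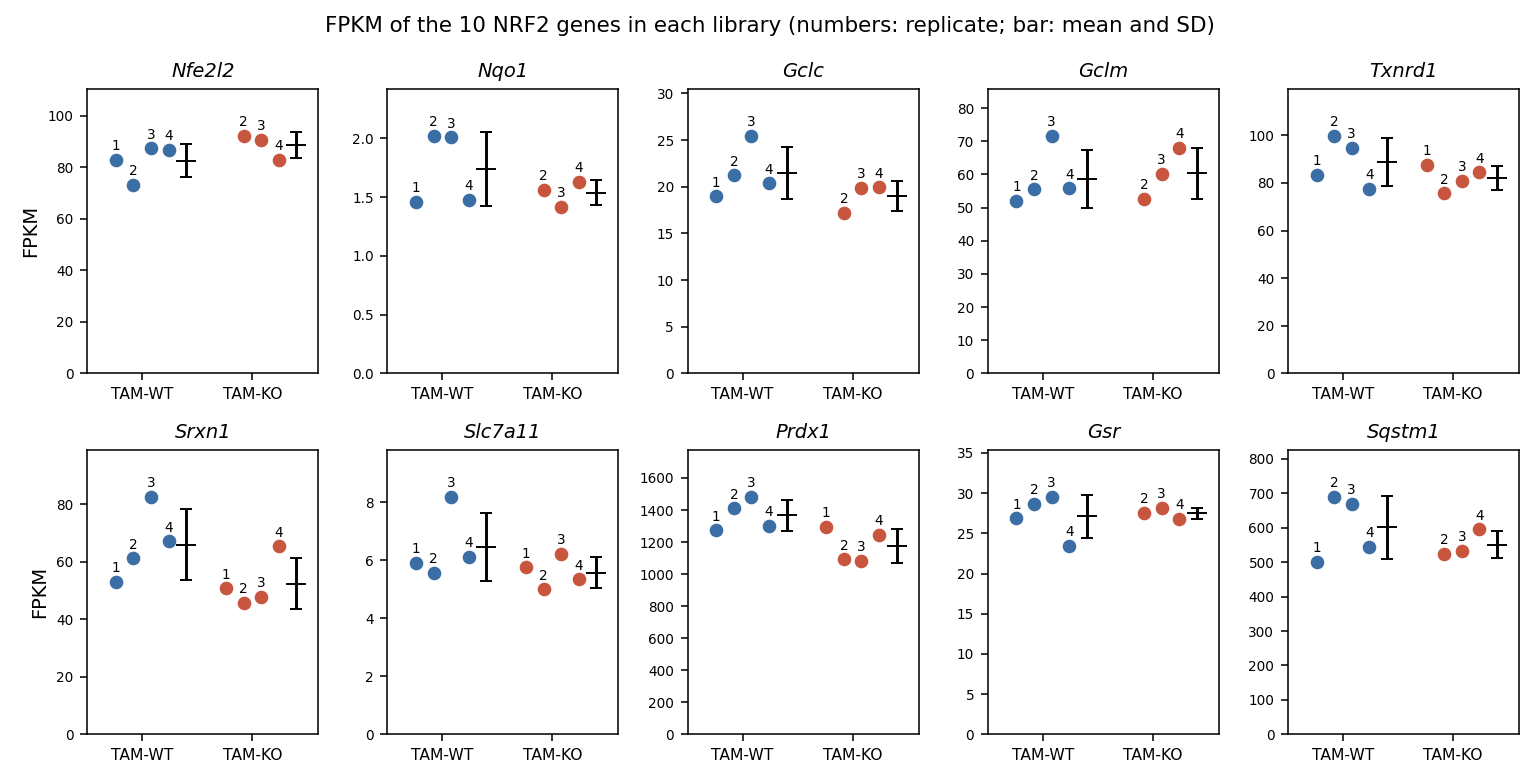
FPKM (vertical axes, from 0) of the 10 genes in each library, with TAM-WT in blue and TAM-KO in red; the number at a point is the replicate and the black bar is the group mean with its SD. TAM-KO replicate 1 is missing for 6 genes, and the groups overlap in all 10 panels, Nfe2l2, Gclm and Gsr having the higher mean in TAM-KO on this scale.

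In level, the 10 genes spanned a 785-fold range of mean FPKM in TAM-WT. Prdx1 was the most abundant at 1367, above 99.6% of the genes tested, followed by Sqstm1 at 600.5. Txnrd1 (88.9), Nfe2l2 (82.6), Srxn1 (66.0) and Gclm (58.7) formed a middle tier in which each neighbor in the order overlapped the next over the 4 TAM-WT libraries. Gsr (27.1) and Gclc (21.5) came next and overlapped each other. Slc7a11 (6.45) and Nqo1 (1.74) were lowest, each clear of the gene above it, and Nqo1 exceeded 16.5% of the genes tested. Nqo1, the textbook NRF2 target of epithelial cells and liver, was thus present at a low level in these sorted cells, with 31 to 45 reads per library, where the other 9 genes had from 733 reads (Slc7a11) to 29059 (Prdx1). The spread within a group also differed among the genes. In TAM-WT the SD of FPKM was 7.04% of the mean for Prdx1, 7.85% for Nfe2l2 and 9.87% for Gsr, and 18.8% for Srxn1, 18.2% for Slc7a11 and 18.1% for Nqo1. In TAM-KO it was from 2.44% for Gsr to 16.9% for Srxn1. It was lower than in TAM-WT for 9 of the 10 genes, Prdx1 being the exception, although 6 of these rest on 3 libraries. The spreads were not tested against each other, and the share over all genes was not counted. Genes outside the 10 went both ways: Prdx5 was at 14.7% in TAM-WT and 2.31% in TAM-KO, and Ftl1 at 7.28% and 19.1%.

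Nfe2l2, the regulator, was expressed at FPKM of 82.9, 73.3, 87.4 and 86.7 in TAM-WT and 92.2, 90.8 and 83.0 in TAM-KO. TAM-WT replicate 2 was the lowest of the 7 libraries, TAM-KO replicates 2 and 3 were the highest, and the groups overlapped. Its mean FPKM was 82.6 ± 6.48 (SD, n = 4) in TAM-WT and 88.7 ± 4.92 (SD, n = 3) in TAM-KO, and its log2 fold change was -0.0080 ± 0.10 (SE), adjusted p = 0.969, with a 95% interval of -0.24 to 0.22. Of the 10 genes it had the fitted value nearest to 0.

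The genes that control NRF2 form a list of 10, of which 0 were called, with 2 at an unadjusted p under 0.05, 7 of 10 below 0 and a median log2 fold change of -0.070. Keap1, the sensor, had FPKM of 23.4, 19.8, 20.2 and 21.2 in TAM-WT and 21.2, 24.2, 26.9 and 25.9 in TAM-KO. Its 3 highest values were those of TAM-KO replicates 2 to 4, TAM-KO replicate 1 lay among the TAM-WT libraries, and the log2 fold change was 0.10 ± 0.093 (SE), adjusted p = 0.491. Cul3, the scaffold of the ligase, was at -0.12 ± 0.065, adjusted p = 0.230, and Rbx1, its RING subunit, at -0.017 ± 0.062, adjusted p = 0.879. Btrc, the adaptor of a KEAP1-independent route of NRF2 destruction, was at 0.022 ± 0.085, adjusted p = 0.886, and Gsk3b, the kinase that marks NRF2 for that route, at -0.13 ± 0.063, adjusted p = 0.184. Bach1, the heme-sensing repressor that occupies antioxidant response elements, had FPKM of 24.4, 20.8, 27.2 and 26.8 in TAM-WT and 27.2, 29.4 and 25.7 in TAM-KO. TAM-WT replicate 2 was again the lowest, the groups overlapped, and the log2 fold change was 0.031 ± 0.13 (SE), adjusted p = 0.898. Nfe2l1, the related factor that governs proteasome genes, was at -0.016 ± 0.063, adjusted p = 0.894.

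The small MAF partners had the lowest fitted values of that list. Maff had FPKM of 10.1, 27.7, 33.4 and 27.5 in TAM-WT and 19.1, 6.41, 11.4 and 12.9 in TAM-KO, where the value of TAM-KO replicate 1 comes from the table of the whole series. TAM-WT replicates 2 to 4 were above every TAM-KO library, but TAM-WT replicate 1 lay below 3 of the 4, so the groups overlapped. Fitted without TAM-KO replicate 1, the log2 fold change of Maff was -1.40 ± 0.44 (SE), adjusted p = 0.0738. Mafg had a log2 fold change of -0.32 ± 0.11 (SE), adjusted p = 0.0906, and Mafk of -0.43 ± 0.21 (SE), adjusted p = 0.213, and the FPKM of both overlapped between groups. Without TAM-WT replicate 1, Maff and Mafg passed an adjusted p of 0.05, as both did with voom and Maff did with DESeq2. With a replicate block Maff and Mafk passed. Small MAF proteins lack an activation domain and serve BACH1 as well as NRF2, so their RNA gives no direction for the targets.

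Slc7a11 and the 2 subunits of glutamate-cysteine ligase supply glutathione. Slc7a11, the cystine importer, had FPKM of 5.91, 5.58, 8.18 and 6.12 in TAM-WT and 5.76, 5.0, 6.22 and 5.34 in TAM-KO. TAM-WT replicate 3 stood highest, the other 3 TAM-WT libraries lay among the TAM-KO libraries, and all 4 TAM-KO libraries were below the TAM-WT mean. Its mean FPKM was 6.45 ± 1.18 (SD, n = 4) in TAM-WT and 5.58 ± 0.53 (SD, n = 4) in TAM-KO, and its log2 fold change was -0.33 ± 0.15 (SE), adjusted p = 0.160, which is -0.15 without TAM-WT replicate 3. Gclc, the catalytic subunit and rate-limiting enzyme of glutathione synthesis, had FPKM of 19.0, 21.2, 25.4 and 20.4 in TAM-WT and 17.2, 19.9 and 19.9 in TAM-KO. TAM-WT replicate 3 was again the highest, TAM-KO replicate 2 the lowest, and the groups overlapped through TAM-WT replicate 1. Its log2 fold change was -0.29 ± 0.14 (SE), adjusted p = 0.198, with a 95% interval of -0.60 to 0.028. Gclm, the modifier subunit that raises the activity of Gclc, had FPKM of 52.0, 55.5, 71.6 and 55.8 in TAM-WT and 52.7, 60.2 and 68.0 in TAM-KO. TAM-WT replicate 3 and TAM-KO replicate 4 were high and the other 5 libraries lay between 52.0 and 60.2, so the spread within each group exceeded the difference between them. Its log2 fold change was -0.067 ± 0.16 (SE), adjusted p = 0.811, and without TAM-WT replicate 3 it was 0.076.

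Gsr, glutathione reductase, returns oxidized glutathione to its reduced form with NADPH. Its FPKM was 26.9, 28.7, 29.5 and 23.5 in TAM-WT and 27.5, 28.2 and 26.8 in TAM-KO. TAM-WT replicate 4 was the lowest and TAM-WT replicate 3 the highest of the 7, and the 3 TAM-KO libraries lay between them within a narrow range. Its log2 fold change was -0.087 ± 0.093 (SE), adjusted p = 0.566, with a 95% interval of -0.30 to 0.13.

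Of the 4 genes of lowest adjusted p, 3 belong to the thioredoxin and peroxiredoxin arm and the other is Slc7a11. They are also the 4 genes measured in all 8 libraries, and without TAM-KO replicate 1 the number of the 10 genes at an unadjusted p under 0.05 was 1 in place of 4. Prdx1 encodes the main cytosolic peroxiredoxin, which reduces hydrogen peroxide, and had FPKM of 1273, 1410, 1481 and 1302 in TAM-WT and 1293, 1091, 1082 and 1244 in TAM-KO. TAM-KO replicates 2 and 3 were lowest, TAM-KO replicate 1 lay just above TAM-WT replicate 1, and all 4 TAM-KO libraries were below the TAM-WT mean. Its mean FPKM was 1367 ± 96.2 (SD, n = 4) in TAM-WT and 1177 ± 107 (SD, n = 4) in TAM-KO, and its log2 fold change was -0.32 ± 0.11 (SE), adjusted p = 0.0780, the lowest adjusted p of the 10, with a 95% interval of -0.56 to -0.083. RefSeq lists 1 pseudogene under the symbol of Prdx1, and reads shared with it could not be separated here. Any under other symbols were not counted.

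Srxn1, sulfiredoxin, repairs peroxiredoxins that have been over-oxidized. Its FPKM was 53.1, 61.2, 82.5 and 67.1 in TAM-WT and 50.8, 45.8, 47.8 and 65.4 in TAM-KO. TAM-WT replicate 3 was the highest, TAM-KO replicates 1 to 3 were the lowest of the 8, and TAM-KO replicate 4 lay among the TAM-WT libraries. Its mean FPKM was 66.0 ± 12.4 (SD, n = 4) in TAM-WT and 52.4 ± 8.88 (SD, n = 4) in TAM-KO, and its log2 fold change was -0.45 ± 0.18 (SE), adjusted p = 0.125, the largest in size of the 10, and -0.28 without TAM-WT replicate 3. Txnrd1, thioredoxin reductase, had FPKM of 83.5, 99.7, 94.7 and 77.7 in TAM-WT and 87.7, 75.7, 80.9 and 84.5 in TAM-KO. TAM-WT replicates 2 and 3 were above all other libraries and TAM-WT replicates 1 and 4 lay among the TAM-KO libraries. Its log2 fold change was -0.22 ± 0.10 (SE), adjusted p = 0.160, with a 95% interval of -0.44 to -0.0020.

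Nqo1 encodes a quinone reductase, and its FPKM was 1.46, 2.02, 2.01 and 1.48 in TAM-WT and 1.56, 1.42 and 1.63 in TAM-KO. TAM-WT replicates 2 and 3 were highest and the other 5 libraries lay between 1.42 and 1.63. Its log2 fold change was -0.28 ± 0.22 (SE), adjusted p = 0.422, the widest error of the 10 at this low level. Sqstm1 encodes p62, an autophagy receptor that is an NRF2 target and that also captures KEAP1, closing a loop on NRF2. Its FPKM was 499.8, 689, 669 and 545 in TAM-WT and 524, 534 and 595 in TAM-KO. TAM-WT replicates 2 and 3 were again the highest, TAM-WT replicate 1 was the lowest, and the 3 TAM-KO libraries lay between. Its log2 fold change was -0.23 ± 0.15 (SE), adjusted p = 0.327, with a 95% interval of -0.56 to 0.11.

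Among the TAM-WT libraries, replicate 3 stood high across the 10 genes. In TMM-scaled CPM (read counts relative to the scaled reads on genes that all 8 libraries hold and that pass the filter, so higher than CPM on whole libraries), TAM-WT replicate 3 was the highest of all libraries in 10 of 10 genes, and in FPKM it was the highest in 6 of 10. Prdx1 was at 2411, 2671, 3120 and 2633 CPM in TAM-WT and 2362, 1967, 1971 and 2373 in TAM-KO. Srxn1 was at 223, 256, 384 and 300.3 CPM in TAM-WT and 205, 182, 192 and 275 in TAM-KO. Slc7a11 was at 87.4, 82.0, 134 and 96.6 CPM in TAM-WT and 81.7, 69.6, 87.8 and 79.0 in TAM-KO. For Prdx1 every TAM-KO library was below every TAM-WT library on this scale, and for Srxn1 and Slc7a11 every TAM-KO library was below TAM-WT replicates 3 and 4. Against each gene's TAM-WT mean, the median log2 ratio over the 10 genes was -0.22, -0.057, 0.27 and -0.050 in TAM-WT and -0.36, -0.25 and -0.11 in replicates 2 to 4 of TAM-KO. Over the 4 genes it holds, TAM-KO replicate 1 was at -0.25. TAM-WT replicate 1 thus lay within the range of the TAM-KO libraries, and TAM-KO replicate 4 lay above TAM-WT replicate 1. TAM-WT replicate 3 also had the lowest TMM factor, 0.926, where the other libraries had 0.947 to 1.05, and the highest share of reads on the 10 most counted genes of the libraries, 8.61%, where the other 6 complete libraries had 6.08% to 7.77%. Its summed melanoma FPKM was 2010, and that of TAM-WT replicate 2, at -0.057 in the 10 genes, was 4382. The 10 most counted genes include Ftl1 and Fth1, themselves NRF2 targets, which took 2.31% of the reads of TAM-WT replicate 3. Whether these features of the libraries enter the values of the 10 NRF2 genes was not tested.

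Leaving out each library in turn called 0 of the 10 genes each time, although for the 6 genes missing from TAM-KO replicate 1 the fold changes without it are the same by construction. Without TAM-WT replicate 3, 8 of 10 log2 fold changes were below 0 and their median was -0.15, and calls over all genes fell from 1218 to 151. Without TAM-WT replicate 1, 10 of 10 were below 0 and the median was -0.34. Over the 8 fits, the log2 fold change of Prdx1 ran from -0.37 to -0.24, of Srxn1 from -0.59 to -0.28, of Slc7a11 from -0.41 to -0.15 and of Txnrd1 from -0.27 to -0.15. That of Gclc ran from -0.36 to -0.16, of Sqstm1 from -0.32 to -0.14 and of Nqo1 from -0.37 to -0.17. These 7 genes stayed below 0 in each fit, and Gsr did too, from -0.14 to -0.009, while Nfe2l2 ran from -0.081 to 0.052 and Gclm from -0.19 to 0.076. The fold change of Srxn1 exceeded that of 7.36% of all genes tested, that of Slc7a11 11.3%, that of Prdx1 11.6% and that of Nfe2l2 48.2%.

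The other NRF2 targets did not move as a block. Of 24 genes, 22 were tested (Gsta3 and Gpx2 were too low), and 2 were called higher and 2 lower in TAM-KO. That is 18.2%, where 9.81% of all genes tested were called. An unadjusted p under 0.05 was reached by 9 of the 22, and by 30.66% of all genes. The median log2 fold change was -0.11, with 15 of 22 below 0. None was a DEG. Gstp1, a glutathione transferase, had FPKM of 389.9, 516, 319 and 286 in TAM-WT and 611, 728, 657 and 556 in TAM-KO, with TAM-KO replicate 1 taken from the table of the whole series. Every TAM-KO library was above every TAM-WT library. TAM-WT replicate 2 was the highest TAM-WT library here, as it was for the melanoma genes and for Idh1, which was lower in TAM-KO. A link was not tested. Fitted without TAM-KO replicate 1, the log2 fold change of Gstp1 was 0.70 ± 0.17 (SE), adjusted p = 0.0436. Its close paralog Gstp2, looked at after the values of Gstp1 were seen and able to share reads with it, was at 0.72 ± 0.16 with an adjusted p of 0.0332. Abcc4, an exporter of glutathione conjugates and cyclic nucleotides, had FPKM of 6.98, 6.51, 5.72 and 5.80 in TAM-WT and 8.43, 9.07, 8.14 and 8.54 in TAM-KO. All 4 TAM-KO libraries were higher than all 4 TAM-WT libraries, and the log2 fold change was 0.34 ± 0.064 (SE), adjusted p = 0.0196.

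Idh1, the cytosolic isocitrate dehydrogenase that makes NADPH, had FPKM of 66.3, 72.4, 71.5 and 62.9 in TAM-WT and 55.5, 51.1 and 53.5 in TAM-KO. All 3 TAM-KO libraries were lower than all 4 TAM-WT libraries, and the log2 fold change was -0.46 ± 0.082 (SE), adjusted p = 0.0216. Ugdh, which makes UDP-glucuronate for conjugation, had FPKM of 42.2, 39.8, 40.05 and 46.4 in TAM-WT and 37.6, 37.5, 37.0 and 34.3 in TAM-KO, and its log2 fold change was -0.31 ± 0.073 (SE), adjusted p = 0.0337. Its groups did not overlap either. The fold changes of these 4 genes held their direction and much of their size with a library left out, from 0.326 to 0.384 for Abcc4, 0.594 to 0.86 for Gstp1, -0.49 to -0.405 for Idh1 and -0.357 to -0.243 for Ugdh. Whether they passed the threshold depended on the libraries: without TAM-WT replicate 3, and without TAM-KO replicate 2 or 3, none of them was called, and of the 8 fits with a library left out, Abcc4 and Idh1 were each called in 5, Ugdh in 2 and Gstp1 in 1.

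The 2 ferritin chains were the most abundant of these targets. Ftl1, the light chain, had FPKM of 15236, 16583, 18154 and 17192 in TAM-WT and 11822, 11630 and 16082 in TAM-KO. Fth1, the heavy chain with ferroxidase activity, had FPKM of 10900, 11888, 14999 and 12222 in TAM-WT and 7535, 8107 and 10902 in TAM-KO. TAM-WT replicate 3 was the highest in both, TAM-KO replicates 2 and 3 were the lowest, and TAM-KO replicate 4 lay within the lower part of the TAM-WT range. The log2 fold change was -0.44 ± 0.17 (SE), adjusted p = 0.130 for Ftl1 and -0.60 ± 0.20 (SE), adjusted p = 0.0899 for Fth1, and both were called by DESeq2 and voom. Together they took 1.81%, 2.00%, 2.31% and 2.04% of all reads in TAM-WT and 1.37%, 1.39% and 1.90% in replicates 2 to 4 of TAM-KO, and Ftl1 was the most counted gene of the libraries. RefSeq lists 5 pseudogenes under the symbols of the ferritin chains, which can take part of their reads. Pseudogenes under other symbols were not counted.

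**Figure D2:**
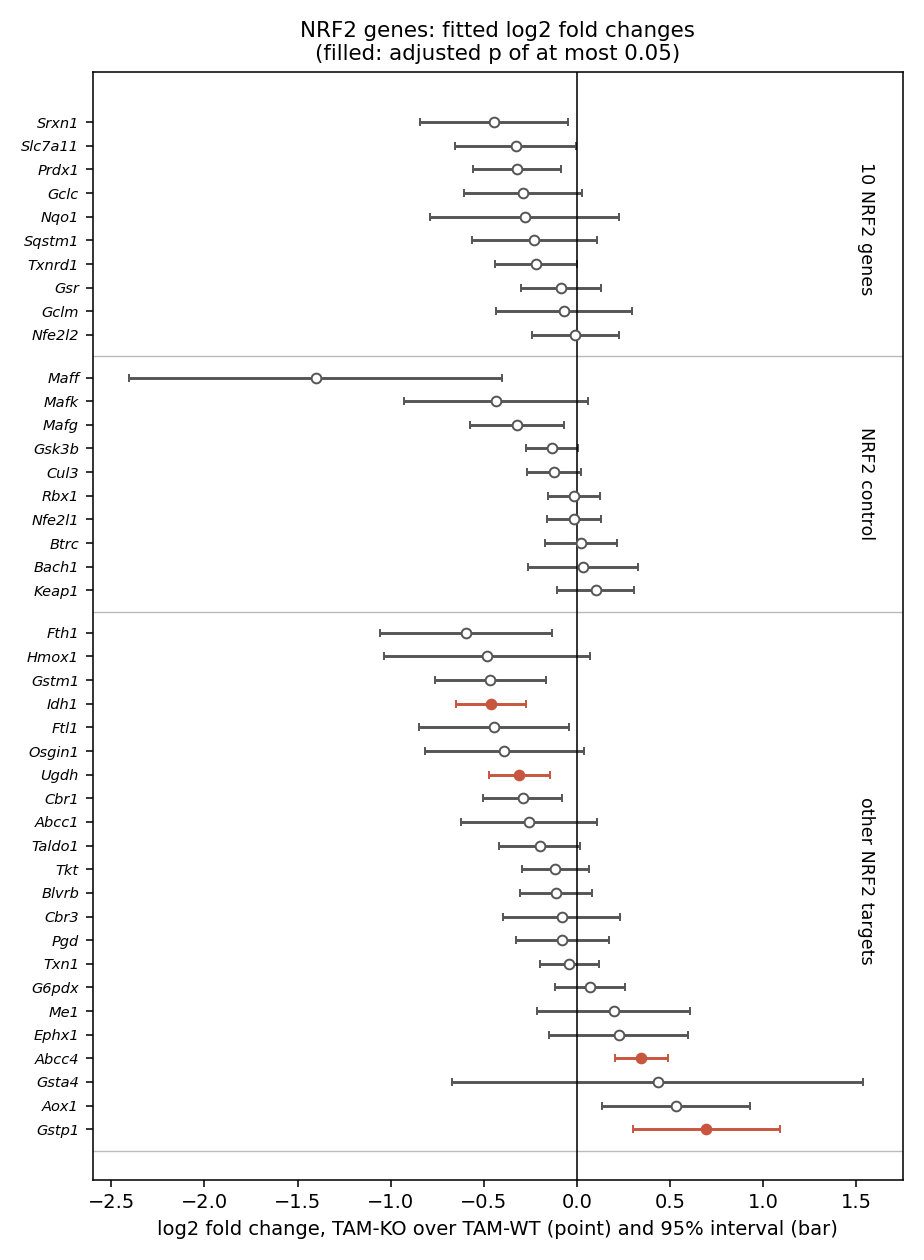
Log2 fold change of TAM-KO over TAM-WT (horizontal axis; points, with 95% intervals as bars) from edgeR after TMM scaling for the 10 genes, the 10 NRF2 control genes and 22 other NRF2 targets; filled red points passed an adjusted p of 0.05. All 10 points of the top block are below 0 on this scale, and none is filled; by FPKM and library totals Nfe2l2, Gclm and Gsr lie above 0.

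Around the glutathione genes Gclc, Gclm, Gsr and Slc7a11, the rest of the glutathione system had 0 of 10 genes called higher and 2 of 10 called lower in TAM-KO, with a median log2 fold change of -0.23. These 2 are 20% of the list, where 9.81% of all genes tested were called. Gss, glutathione synthetase, which completes what Gclc and Gclm begin, had FPKM of 14.7, 15.2, 13.3 and 13.6 in TAM-WT and 12.8, 12.2 and 12.1 in TAM-KO. All 3 TAM-KO libraries were below all 4 TAM-WT libraries, and the log2 fold change was -0.30 ± 0.066 (SE), adjusted p = 0.0341. Gsto1, an omega-class transferase, had a log2 fold change of -0.30 ± 0.079 (SE), adjusted p = 0.0482. The most abundant, Gpx1 and Gpx4, the glutathione peroxidases of hydrogen peroxide and of lipid peroxides, had log2 fold changes of 0.012 and -0.089, and their groups overlapped. Under library totals or FPKM neither Gss nor Gsto1 was called, and each was called in at most 2 of the 8 fits with a library left out.

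Around Txnrd1, Srxn1 and Prdx1, the rest of the thioredoxin and peroxiredoxin system had 1 of 10 genes called, Prdx4, with a median of -0.081. Of all genes tested, 9.81% were called. Prdx4, the peroxiredoxin of the endoplasmic reticulum, had FPKM of 87.1, 72.6, 75.3 and 73.9 in TAM-WT and 66.0, 67.7, 72.0 and 65.9 in TAM-KO, with every TAM-KO library below every TAM-WT library, and a log2 fold change of -0.28 ± 0.068 (SE), adjusted p = 0.0342. It was called in 1 of the 8 fits with a library left out. Prdx5 and Txnip, the most abundant of the list, had log2 fold changes of -0.048 and -0.054 with overlapping groups. Of the 4 genes that remove superoxide and peroxide, 3 were tested and 1 was called, Cat, catalase, with FPKM of 101, 119, 120.1 and 92.8 in TAM-WT and 74.0, 70.5 and 91.3 in TAM-KO. TAM-KO replicates 2 to 4 were below all TAM-WT libraries, and the log2 fold change was -0.57 ± 0.14 (SE), adjusted p = 0.0465, called in 2 of the 8 fits with a library left out. Sod1, the most abundant of that list, had a log2 fold change of 0.060.

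The NADPH oxidase, a source of the oxidants that the NRF2 targets remove, had 0 of 6 genes called and a median log2 fold change of 0.039. Its most abundant subunit, Cyba, had a log2 fold change of -0.30 and was called by voom. ATF4, the factor of the amino acid response, drives Slc7a11 independently of NRF2. Of 11 genes of that response, 0 were called, 6 were below 0 and 5 above, and the median was -0.0003. Atf4 itself had FPKM of 217, 284, 293 and 288 in TAM-WT and 174, 229 and 198 in TAM-KO, with TAM-WT replicate 1 low and a log2 fold change of -0.54 ± 0.16 (SE), adjusted p = 0.0613. It was called by DESeq2, by voom, with a replicate block and without TAM-WT replicate 1. Ddit3, another gene of the response, had a log2 fold change of -0.31 ± 0.13 (SE), adjusted p = 0.160. Of the 5 genes above 0, Cth was at 0.67, Asns at 0.38 and Phgdh at 0.37. Voom called Cth and Phgdh, and the fit without TAM-WT replicate 2 called Asns and Phgdh. Of 10 genes that act with p62 in selective autophagy, 0 were called and the median was -0.14. Gabarap, which binds p62 on the autophagosome, had FPKM of 484, 468, 551 and 563 in TAM-WT and 448, 425, 414 and 454 in TAM-KO, with no overlap between groups and a log2 fold change of -0.35 ± 0.10 (SE), adjusted p = 0.0577, called by DESeq2, by voom and without TAM-WT replicate 2. Tax1bp1, another autophagy receptor, was at -0.089. Over the 8 lists, 82 of 85 genes were tested and 8 were called, 2 higher and 6 lower, which is 9.76% and near the 9.81% of all genes, so the number of calls is no result about these lists. The median of the 82 was -0.11. Under library totals or FPKM 3 of these 8 were called, Abcc4, Gstp1 and Idh1.

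The 10 genes lie on 7 chromosomes of the GRCm38.p6 build, by RefSeq at chr2:75675513-75704663 (Nfe2l2, gene ID 18024), chr2:152105524-152111376 (Srxn1, gene ID 76650), chr3:50364936-50499087 (Slc7a11, gene ID 26570), chr3:122245487-122267215 (Gclm, gene ID 14630), chr4:116685599-116700000 (Prdx1, gene ID 18477), chr8:33653238-33698162 (Gsr, gene ID 14782), chr8:107388225-107403205 (Nqo1, gene ID 18104), chr9:77754535-77794489 (Gclc, gene ID 14629), chr10:82833951-82897724 (Txnrd1, gene ID 50493) and chr11:50200152-50210820 (Sqstm1, gene ID 18412). No position was used in choosing them.

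Because NRF2 with a small MAF binds antioxidant response elements, the promoters were searched for their core letters. RefSeq promoters of GRCm38.p6, from 250 bases before to 50 bases after the start, were available for 8 of the 10 genes, Gclc and Gsr having none in the table. On either strand, TGACNNNGC was present for 5 of the 8 genes and for 14.0% of the 27025 genes with a promoter. The alternative form TGAGNNNGC was present for 3 of the 8 and for 19.8% of all genes, and either form for 6 of the 8 and for 30.8% of all genes. Nqo1 and Sqstm1 held neither form in this window, which says nothing of elements farther away. By promoter, since a gene may have several, 12.4% and 17.6% of 32851 held the first and the second form. A match shows letters and not a bound site. Txnrd1 has 3 promoters in the table, and its match is in 1 of them. Matches after the start, 1 in Prdx1 and 1 in Srxn1, are not shown. That promoter of Txnrd1 and the promoter of Slc7a11 lie within the span of the gene given above, before a transcript start inside it. The stretches below are shown because they are the letters before the start of the promoter's transcript that these genes share with the element, 30 bases each, read 5′ to 3′ on the strand of the gene, with the match in capitals.
Prdx1, chr4:116685456-116685485: cagggaaagcGCTGAGTCAtcccccgtagg
Srxn1, chr2:152105356-152105385: tctactgagaGCCGACTCAtcctctctggg
Srxn1, chr2:152105469-152105498: aaattcacccTGAGTCAGCggccgggcgcg
Gclm, chr3:122245413-122245442: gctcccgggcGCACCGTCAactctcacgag
Txnrd1, chr10:82859104-82859133: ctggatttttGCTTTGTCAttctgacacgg
Nfe2l2, chr2:75704884-75704913: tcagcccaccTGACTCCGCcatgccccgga
Slc7a11, chr3:50443691-50443720: taatgttggcGCTTTCTCAagctggagttt
In Prdx1, Gclm, Txnrd1, Slc7a11 and the first stretch of Srxn1 the match reads on the opposite strand of the gene, so the capitals show its complement. In Prdx1 and in the second stretch of Srxn1 the match overlaps TGANTCA, the site of AP-1 factors, which by itself was present for 2 of the 8 genes and 8.97% of all genes. Nfe2l2 and Slc7a11 lie on the minus strand of their chromosomes and the other 4 on the plus strand.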

How the data were processed

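RNA was measured in 8 libraries of sorted CD45+F4/80+ cells, 4 TAM-WT and 4 TAM-KO, sequenced on BGISEQ-500. Expected counts, which RSEM 1.2.12 estimates per gene after alignment with Bowtie2 2.2.5 (HISAT2 2.0.4 is also named per the labels; build GRCm38.p6), are as the authors deposited them, with no normalization. FPKM, relative to gene length and mapped reads, was likewise taken as deposited by the authors.

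The table of TAM-KO replicate 1 lacks 5311 genes, has 1 line that joins 2 genes, and holds 629 values that belong to other genes and were not used (170 of 170 that could be compared equalled, within 1e-06, the value of another gene in the series table). In TAM-KO replicate 2, 1 line without a gene was left out. FPKM of TAM-KO replicate 1 was taken from the table of the whole series where listed (1188 genes, a selection that differs between the groups) and did not enter the test.

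After rounding to whole numbers, the expected counts were fitted in R 4.3.3 with edgeR 4.0.16 (TMM, filterByExpr, glmQLFit, glmQLFTest), 9396 genes on 8 libraries and 3016 on 7, with Benjamini-Hochberg adjustment over all 12412. The SE is the log2 fold change over the root of F. DEGs needed both an adjusted p of 0.05 or less and a fold change of 2 or more, the study's thresholds. The fit was tested on simulated data. The alternatives were limma 3.58.1 (on log2(FPKM + 0.1), on log2(FPKM + 1), and voom with quality weights), the Wald test of DESeq2 1.42.0, its size factors within edgeR, a replicate block, a filter of 10 counts in all samples or none, each library left out, TAM-KO replicate 1 filled from the series table, an adjusted p of 0.01 and a fold change of 1.5; library totals in place of TMM were added after seeing the data, as was the second form of the motif.

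The 10 genes and the 8 pathway and 11 marker lists were chosen with earlier results of these data known. Named are all 10 genes, all NRF2 control genes, in other pathway lists the genes called and the 2 of highest mean FPKM, in marker lists the gene of highest mean FPKM, and Colec11; other names were chosen after their values were seen. 2 genes are not reported here. The marker lists were of macrophages, recruited monocytes, neutrophils, dendritic cells, T, B and NK cells, melanoma cells, endothelial cells, fibroblasts and proliferation. Standard errors carry the spread between libraries as well as counting error.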

Additional observations from a re-analysis of the deposited data

Results flagged for a closer look

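In groups of 4 libraries, a library was singled out where its distance from the nearest other, over the range of the group, passed Dixon's critical value at 95%. Of 79 groups of 52 named genes tested, 5 had such a library, and chance gives about 1 in 20; 25 groups of 3 libraries were not tested. None was in the 10 NRF2 genes. In TAM-KO, Rbx1 was 40.87 FPKM in replicate 1 and 38.02 to 38.23 in the other 3. In TAM-WT, Atf4 was 216.66 FPKM in replicate 1 and 284.34 to 293.43 in the others, and Ddit3 was 94.85 in replicate 2 and 78.86 to 80.88 in the others. Cd3g, a T cell receptor chain, was 4.58 FPKM in TAM-WT replicate 1 and 0.15 to 0.23 in the others, and Gzmb, granzyme B, was 6.55 in that library and 0.23 to 0.47 in the others. TAM-WT replicate 1 is also the lowest TAM-WT library for 6 of the 10 NRF2 genes, with a median log2 ratio over the 10 of -0.22 to the TAM-WT mean; a link was not tested.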

How the results depend on the processing

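The count of 0 of 10 NRF2 genes called held under every alternative but DESeq2 (1) and voom with quality weights (2), and 0 were DEGs under any; an adjusted p of 0.01 and a fold change of 1.5 are no checks here, since neither could raise these counts from 0. Of the 180 log2 fold changes recomputed for the 10 genes, 163 kept their direction and side of the threshold, 3 passed it (Prdx1 by DESeq2 and voom, Srxn1 by voom) and 14 turned above 0. Of the 163, 12 could not change, since 6 genes have no value in TAM-KO replicate 1 to leave out or to fill. The 14 were of Nfe2l2, 0.10 by both FPKM fits, 0.11 with library totals, 0.052 and 0.028 without TAM-WT replicate 3 or 4 and 0.013 without TAM-KO replicate 4 (-0.081 to 0.052 over the libraries left out); of Gclm, 0.041 and 0.042 by FPKM, 0.046 with library totals, 0.076 without TAM-WT replicate 3 and 0.050 without TAM-KO replicate 2 (-0.19 to 0.076); and of Gsr, 0.024 and 0.025 by FPKM and 0.024 with library totals. The FPKM and total scalings move all genes up by a median of 0.089 to 0.11, so their part in these turns is by construction; for the others the cause was not tested.

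Calls among the genes of the 8 pathway lists, 8 as reported, were 16 by DESeq2, 28 by voom, 3 by each FPKM fit, 3 with library totals, 0 at an adjusted p of 0.01, and 0 to 16 with a library left out. Calls over all genes, 1218 as reported, were 2253 by DESeq2, 3625 by voom, 36 at an adjusted p of 0.01, and 77 to 2755 with a library left out, the highest without TAM-WT replicate 2 and the lowest without TAM-KO replicate 2 or 3. The cause was not tested. The other alternatives moved these counts by less than 1.5 times.

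With a replicate block, 0 of 10 NRF2 genes, 0 DEGs among them, 6 pathway genes and 1080 of all genes were called; of the 8 pathway calls Abcc4, Gstp1 and Idh1 stayed, Cat, Gss, Gsto1, Prdx4 and Ugdh were lost, and Atf4, Maff and Mafk were added. The replicate numbers showed no clear pairing: deviations of same-numbered libraries correlated at -0.325, 0.020, -0.234 and 0.261 over 9396 genes. Of the TAM-WT libraries only replicate 4 was closest to its own number. With 4 libraries per group this does not settle whether the samples were paired. The 6 NRF2 genes that the table of TAM-KO replicate 1 lacks rest on 3 TAM-KO libraries, and Nqo1 on 31 to 45 reads per library, which limits what a difference of their size could show.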

Other observations

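Markers of lymphocytes differed between libraries more than any of the 10 NRF2 genes. Of 7 T cell genes, 6 have a value in all 8 libraries, each only through the table of the whole series for TAM-KO replicate 1. These 6 summed to 14.1, 0.69, 0.73 and 1.24 FPKM across TAM-WT and 27.1, 47.8, 38.8 and 16.5 across TAM-KO. Cd3g was the most abundant by mean. The gene left out, Cd4, had a log2 fold change of -0.29. With Cd4, TAM-WT libraries summed to 16.92, 2.12, 2.88 and 2.82 FPKM and TAM-KO replicates 2 to 4 to 49.63, 40.25 and 18.5. In both sums TAM-WT replicate 1 stood near TAM-KO replicate 4 and the other 3 TAM-WT libraries were the lowest. By edgeR 0 of 7 were called, with 6 at an unadjusted p under 0.05, 1 of 7 below 0 and a median log2 fold change of 2.83. Of 5 NK cell genes 3 were tested and 0 called, with a median of 2.74. The 4 with a value in all 8 libraries, led by Gzmb, summed to 0.7 to 12.01 FPKM across TAM-WT and 10.2 to 39.6 across TAM-KO. For Gzmb the value of TAM-KO replicate 1, 6.17 FPKM, comes from the table of the whole series. The gene left out of the sum, Klrb1c, was not tested. Its log2 ratio of TAM-KO to TAM-WT mean FPKM was -0.84, with overlapping groups. The 6 recruited monocyte genes summed to 205.1, 96.46, 191.1 and 227.2 FPKM in TAM-WT and 429.7, 450.8 and 303.9 in TAM-KO replicates 2 to 4. Of these, 4 have a value in all 8 libraries, Ly6c2 and Chil3 only through the table of the whole series for TAM-KO replicate 1. These 4 summed to 132, 58.6, 123 and 158 FPKM in TAM-WT and 300.4, 363, 392 and 245 in TAM-KO. The groups did not overlap in either sum. The 2 others, Ccr2 and Vcan, which TAM-KO replicate 1 lacks, are the 2 of the 6 below 0, with overlapping groups. Plac8, of highest mean FPKM over both groups but below Ccr2 in TAM-WT, had a log2 fold change of 1.41 ± 0.21 (SE), adjusted p = 0.0123. It was called in 8 of 8 fits with a library left out, where Ly6c2 was called in 2.

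Of 4 B cell genes, 2 were tested and 0 called, with a median of 0.18; the most abundant, Cd79b, was at 4.12 ± 1.58 in TAM-WT and 7.24 ± 2.97 in TAM-KO FPKM (SD). Of 6 neutrophil genes, 4 were tested and 1 called, S100a8, higher in TAM-KO, with a median of 1.62 and 4 of 4 at an unadjusted p under 0.05. Csf3r had the highest mean FPKM over both groups. In TAM-WT alone Mmp8 was above it, at 30.42 against 18.79, and in TAM-KO below it, at 15.07 against 30.48. S100a8 was called in 1 of 8 fits with a library left out, with log2 fold changes of 1.52 to 2.97, and Mmp8 went the other way at -1.22. In FPKM TAM-KO replicate 1 stood high in this list, where the 6 summed to 211 in that library against 47.1 to 73.7 in the other 7 libraries. Of 6 dendritic cell genes 1 was called, Xcr1, higher in TAM-KO, with a median of 0.023 and Ccr7 the most abundant at 5.87 ± 2.21 in TAM-WT and 4.91 ± 1.30 in TAM-KO FPKM. Of 6 fibroblast genes, 4 were tested and 0 called, the 6 summing to 2.15 to 6.51 FPKM in TAM-WT and 2.90 to 4.45 in TAM-KO replicates 2 to 4, led by Col1a1. Of 5 endothelial genes, 4 were tested and 0 called, led by Pecam1 at 1.79 ± 0.67 in TAM-WT and 4.04 ± 2.09 in TAM-KO FPKM. Of 6 proliferation genes 1 was called, Pcna, the most abundant, lower in TAM-KO at -0.35 ± 0.082 (SE), adjusted p = 0.0338, and the median was 0.0001. Xcr1 and Pcna were each called in 3 of 8 fits with a library left out, and neither was with a replicate block. S100a8 and Xcr1 were not called once series values filled the gaps of TAM-KO replicate 1. No gene of the 11 lists was listed at 0 in every library.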
